A study of Mus musculus with 27 samples.

Results

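The genes described here encode the subunits of the mitochondrial oxidative phosphorylation complexes, taken from the annotation by symbol: Ndufa, Ndufb, Ndufc, Ndufs and Ndufv genes for complex I (Ndufaf assembly factors left out), Sdha to Sdhd for complex II, Uqcr genes for complex III, the Cox4i, Cox5, Cox6, Cox7 and Cox8 genes for complex IV, and Atp5 genes for complex V. The rule gave 82 genes of the 18193 genes that had a probe set of their own, and 169 probe sets of 34945. A total of 80 members were among the 13527 genes tested. The other two, Cox7b2 and Cox8b, both isoforms of complex IV subunits, were too dim to pass the filter on low signal. Complex I had 34 members, complex II 4, complex III 8, complex IV 19 and complex V 17. Ndufa4, first counted with complex I and now known as a complex IV subunit, and its paralogue Ndufa4l2 were placed with complex IV.

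Complexes I to IV pass electrons from NADH and succinate to oxygen, and complexes I, III and IV pump protons across the inner mitochondrial membrane. Complex V, the ATP synthase, uses the proton gradient to make ATP. Most subunits are encoded in the nucleus, and a small set by the mitochondrial genome itself. Mature neurons rely heavily on this pathway, while dividing granule neuron precursors of the cerebellum and the medulloblastomas that arise from them are known for strong aerobic glycolysis.

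RNA was measured on 27 Affymetrix arrays of mouse cerebellum, 21 of tumours and 6 of cerebellar tissue without tumour. Of the tumours, 19 carried SmoM2, an always active form of the Hedgehog receptor component Smoothened, switched on by one of 4 cre lines: Math1-cre:SmoM2 (3 arrays), Tlx3-cre:SmoM2 (3), Olig2-tva-cre:SmoM2 (7) and hGFAP-cre:SmoM2 (6). Math1-cre acts in granule neuron precursors and hGFAP-cre in broader neural progenitors; 2 further tumours came from Ptc1+/- mice, which lack 1 copy of the inhibitory Hedgehog receptor gene. The tissue without tumour came from mice that carried SmoM2 with a cre line or lacked a copy of Ptc1, and none from Math1-cre or Tlx3-cre mice: controls 1 and 2 from Olig2-tva-cre:SmoM2 mice, control 3 from an hGFAP-cre:SmoM2 mouse, controls 4 and 5 from Mxi1-cre:SmoM2 mice and control 6 from a Ptc1+/- mouse. Ages and strain backgrounds were not given in the sources used here. In the following, a tumour group is called by its driver or as Ptc1+/-, and every level is the log2 signal of a gene's brightest probe set after scaling all arrays to 1 trimmed mean. A gene was called when limma's Benjamini-Hochberg adjusted p over all 13527 genes was below 0.05, and a difference over all tumours gives the 5 tumour groups equal weight. Such a p-value reflects how much these arrays vary within a group.

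The deposited signals had trimmed means from 42.6 to 206, and the 7 dimmest arrays were all tumours. The 3′ to 5′ signal ratio of the Gapdh and Actb control probe sets, which rises when RNA is degraded, stood apart on 5 arrays at 1.67 to 1.88 on the log2 scale: hGFAP 4 and 6, Olig2 3 and 4, and control 1. The cerebellum's cell markers differed between the groups. All 12 mature granule neuron markers tested were lower in tumours, with a mean level over the markers of 5.34 to 8.15 across tumour arrays and 10.71 to 11.06 across control arrays. All 8 Purkinje cell markers and all 8 inhibitory interneuron markers tested were lower too, as were 9 of 10 oligodendrocyte and 8 of 9 astrocyte and Bergmann glia markers (1 was higher). All 11 cell division genes (8.55 to 10.24 in tumours, 4.60 to 6.05 in controls), 8 of 10 granule neuron precursor markers and 8 of 9 microglia markers were higher. Control 6 had the 6.05 in cell division genes, and a mean of 7.69 in precursor markers against 6.50 to 7.02 in the other controls. The part of these cell markers in the results below was not tested, and in bulk tissue fewer cells of a type and less RNA per cell cannot be told apart.

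Promoters are shown for 8 members that the results turn on, from 250 bases before to 50 bases after the start of transcription, so that the letters read by known regulators of respiratory genes can be seen beside the expression values: Sdha, Cox8a, Ndufs5 and Ndufb8, which were lower in tumours, Cox7a2l, which was higher, and Atp5g1, Atp5g2 and Atp5g3, which encode the same mature protein and had differences of different sign. The sequences are RefSeq's on build GRCm38.p6, all on the minus strand and printed 5′ to 3′: Sdha at chr13:74350191-74350490, Cox8a at chr19:7217567-7217866, Ndufs5 at chr4:123718137-123718436, Ndufb8 at chr19:44555393-44555692, Cox7a2l at chr17:83514284-83514583, Atp5g1 at chr11:96075582-96075881, Atp5g2 at chr15:102670998-102671297 and Atp5g3 at chr2:73911277-73911576. Capitals mark the motifs of 4 factors, searched on both strands: GCGCA, any base and GCGC in a row for NRF1, AAGATGGC for YY1, CCGGAAG for ETS factors such as GABP, and AAGGTCA for the ERR nuclear receptors.
Sdha: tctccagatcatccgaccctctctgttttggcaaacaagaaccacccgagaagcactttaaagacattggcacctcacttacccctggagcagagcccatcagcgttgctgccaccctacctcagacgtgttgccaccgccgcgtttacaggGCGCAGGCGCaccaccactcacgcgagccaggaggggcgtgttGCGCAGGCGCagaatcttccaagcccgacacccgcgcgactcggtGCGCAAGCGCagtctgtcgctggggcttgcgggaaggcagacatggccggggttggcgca
Cox8a: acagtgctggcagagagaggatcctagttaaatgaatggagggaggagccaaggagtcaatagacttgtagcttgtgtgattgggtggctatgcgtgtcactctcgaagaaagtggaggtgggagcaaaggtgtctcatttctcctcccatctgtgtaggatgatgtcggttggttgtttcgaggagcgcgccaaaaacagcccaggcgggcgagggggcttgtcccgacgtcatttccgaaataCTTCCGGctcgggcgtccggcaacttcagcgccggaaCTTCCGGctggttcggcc
Ndufs5: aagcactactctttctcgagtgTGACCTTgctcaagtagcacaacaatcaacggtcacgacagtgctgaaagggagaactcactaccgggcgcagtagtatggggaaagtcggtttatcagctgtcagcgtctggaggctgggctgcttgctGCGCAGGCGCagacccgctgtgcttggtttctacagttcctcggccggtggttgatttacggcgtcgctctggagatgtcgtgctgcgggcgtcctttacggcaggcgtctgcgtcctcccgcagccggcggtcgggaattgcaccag
Ndufb8: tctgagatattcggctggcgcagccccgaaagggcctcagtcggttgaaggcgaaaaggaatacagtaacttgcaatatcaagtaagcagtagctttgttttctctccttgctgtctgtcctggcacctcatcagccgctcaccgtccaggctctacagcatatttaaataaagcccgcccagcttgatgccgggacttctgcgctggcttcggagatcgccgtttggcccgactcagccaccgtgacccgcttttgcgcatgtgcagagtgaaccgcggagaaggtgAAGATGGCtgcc
Cox7a2l: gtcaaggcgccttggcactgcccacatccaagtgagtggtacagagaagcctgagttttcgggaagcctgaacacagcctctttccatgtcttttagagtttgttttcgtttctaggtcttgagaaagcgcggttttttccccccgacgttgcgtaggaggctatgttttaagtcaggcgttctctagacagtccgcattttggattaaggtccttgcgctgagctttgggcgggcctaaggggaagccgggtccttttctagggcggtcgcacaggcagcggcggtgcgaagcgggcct
Atp5g1: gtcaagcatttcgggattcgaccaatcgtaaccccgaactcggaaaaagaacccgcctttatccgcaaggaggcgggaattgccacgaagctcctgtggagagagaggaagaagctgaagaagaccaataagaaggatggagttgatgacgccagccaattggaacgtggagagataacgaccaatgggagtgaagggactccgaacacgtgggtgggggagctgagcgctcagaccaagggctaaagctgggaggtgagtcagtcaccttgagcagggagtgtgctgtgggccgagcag
Atp5g2: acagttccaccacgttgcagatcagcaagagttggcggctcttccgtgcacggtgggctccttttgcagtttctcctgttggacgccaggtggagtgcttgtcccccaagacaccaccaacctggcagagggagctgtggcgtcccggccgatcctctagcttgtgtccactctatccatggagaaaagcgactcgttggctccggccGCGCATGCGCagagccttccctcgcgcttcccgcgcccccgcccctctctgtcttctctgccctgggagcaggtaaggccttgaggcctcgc
Atp5g3: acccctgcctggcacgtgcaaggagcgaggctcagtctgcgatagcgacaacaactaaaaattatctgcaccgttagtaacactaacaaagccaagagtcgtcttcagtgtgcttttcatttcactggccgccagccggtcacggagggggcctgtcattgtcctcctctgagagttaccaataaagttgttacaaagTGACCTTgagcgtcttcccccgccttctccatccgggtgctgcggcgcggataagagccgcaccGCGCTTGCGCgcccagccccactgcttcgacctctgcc

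Sdha's window held 3 NRF1 motifs, Cox8a's 2 ETS motifs, and Ndufs5's and Atp5g3's 1 NRF1 and 1 ERR motif each. Ndufb8's window held 1 YY1 motif, and in Atp5g2's the marked run reads as the NRF1 motif on both strands, so it was counted 2 times. None of the 4 motifs was in the Cox7a2l or Atp5g1 window. Over the 67 members with a promoter in the table (72 promoters), the NRF1 motif was in 22.2% of promoters, against 4.60% of all 32851 promoters of this length. YY1 was in 12.5% against 2.75%, ETS in 23.6% against 8.86% and ERR in 11.1% against 4.72%. The NRF1 form was widened to any base in that place after a form with T there had been run, which was in 5.56% of member promoters against 0.971% of all. The motif matches are a description of the letters and not of binding.

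Across all tumours, 33 of the 80 subunit genes were lower than in tissue without tumour, 1 was higher and 46 were not called. Over all genes tested 25.6% were lower and 26.8% were higher (52.4% called), so the members' 41.25% lower stood above that background and their single higher gene below it. The members' median difference was -0.38 on the log2 scale, against 0.016 for all genes. A total of 72 of the 80 differences (90%) were below 0, against 49.1% over all genes. Of the 33, Ndufb4, Cox6b2 and Cox7a1 were dim in tumours and passed the filter on low signal mainly through the controls (above it on 2, 3 and 3 of 21 tumour arrays, against 5, 5 and 6 of 6 control arrays). A filter met on most arrays of each side was chosen after the data were seen. Among the genes that met it, 31 of 75 members were lower (41.3%, against 27.6% of 9861 genes). At least 2-fold lower were 5 of the 75 members and 1305 of the 9861 genes, a smaller share of the members than of all genes. Most differences were small: over all 80 members, 8 were at least 2-fold lower, those 3 dim genes included. The share of all genes tested that were at least 2-fold lower is not given here. In 6 genes (7.5%, against 9.68% of all genes) all 21 tumour arrays lay below all 6 control arrays. With the signals as deposited the median of all genes was itself -0.34 and that of the members -0.74, with 35 members lower, so the members' shift relative to all genes was of similar size under both scalings.

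**Figure D1:**
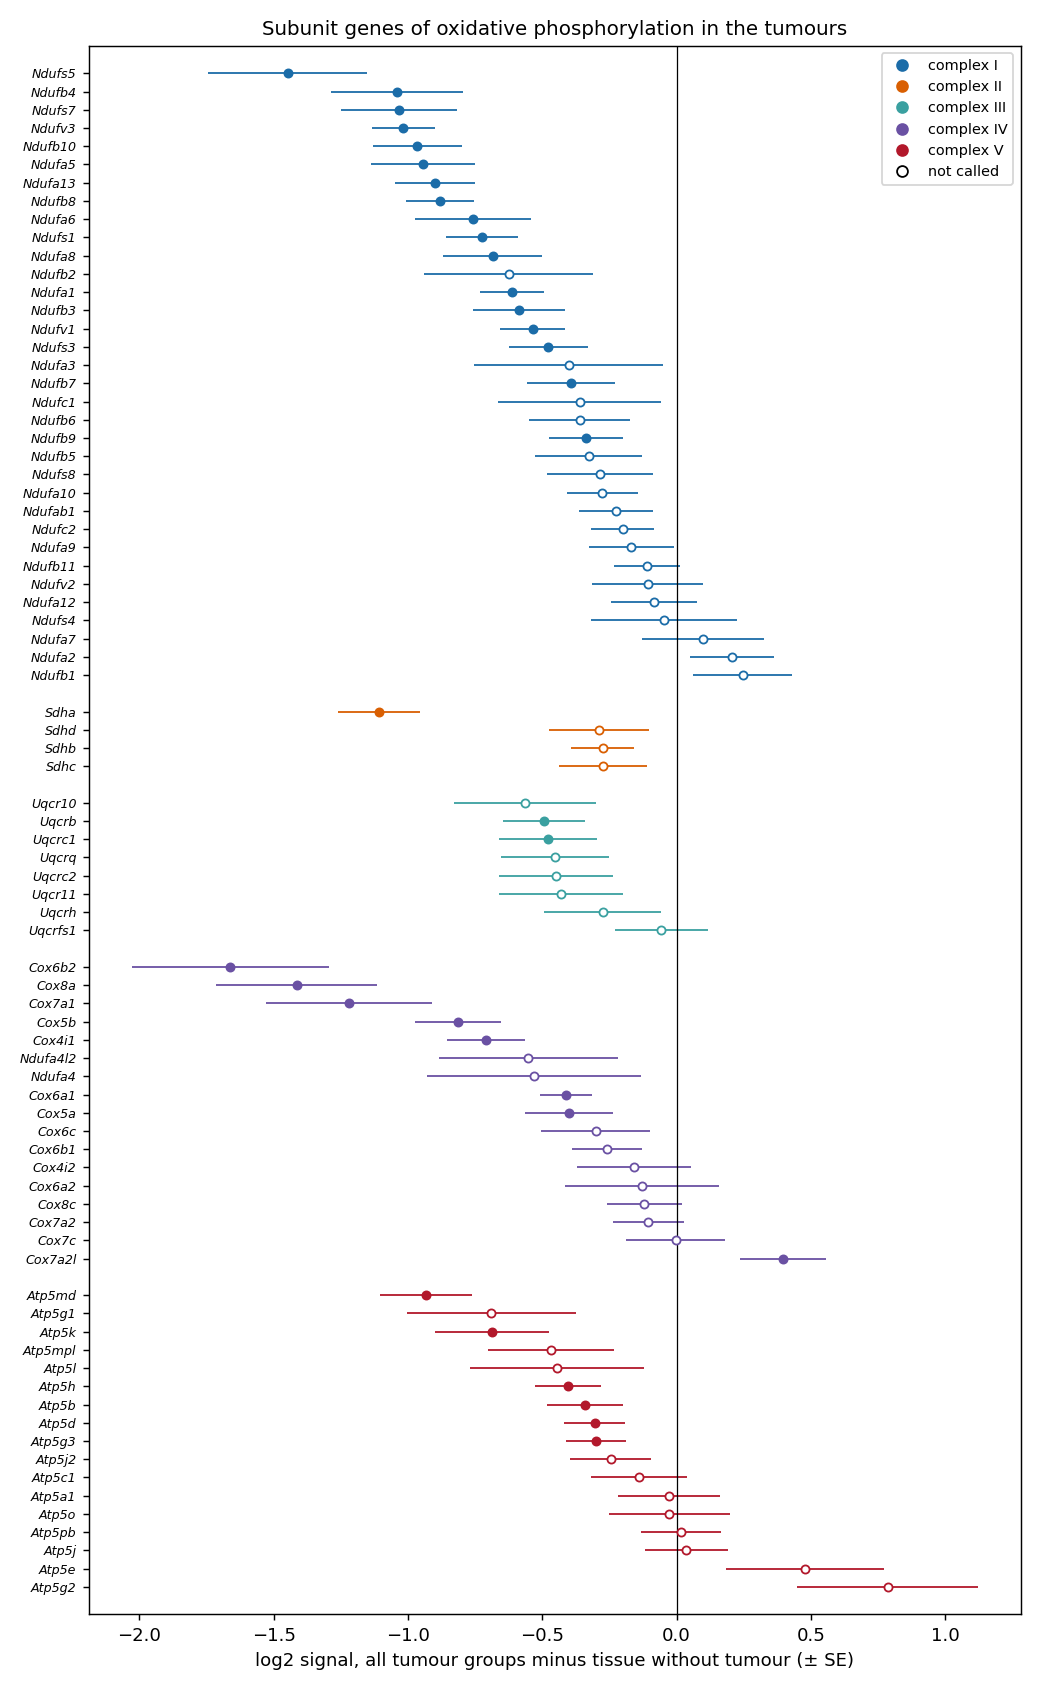
Difference (log2, all tumours minus tissue without tumour) ± SE for each of the 80 subunit genes, ordered within complexes I to V; filled points were called at an adjusted p below 0.05 and open points were not. Of the 80 genes 72 lie left of 0, and Cox7a2l is the only filled point right of 0.

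In complex I, which oxidises NADH, 17 of 34 genes were lower and none was higher, with a median difference of -0.40. The share lower was 50%, against 25.6% of all genes. By position, 4 of 6 core subunits of the matrix arm (Ndufs1, Ndufs3, Ndufs7 and Ndufv1), 3 of 8 accessory subunits of that arm and 10 of 19 accessory subunits of the membrane arm were lower. The shares of these positions were not compared with each other. Ndufab1, the mitochondrial acyl carrier protein, was not called (difference -0.23). The core subunits encoded by the mitochondrial genome are described further below.

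Ndufs7, the core subunit that holds the last iron-sulphur cluster before ubiquinone, had levels of 7.81 to 9.40 in tumours (median 8.84), against 9.13 to 10.21 in controls (median 9.97). In 15 of 21 tumours it lay below all controls, and the groups overlapped only through the lowest controls. The difference was -1.03 ± 0.22 (SE, adjusted p = 0.00018). Ndufs1, the largest subunit and the carrier of several iron-sulphur clusters, had 8.08 to 9.22 in the hGFAP tumours and 8.63 to 9.17 in the Olig2 tumours, against 9.28 to 9.57 in controls. It did not overlap with the controls in any tumour group (difference -0.72 ± 0.13, adjusted p = 3.38e-05).

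Ndufv3, a small accessory subunit of the NADH-binding module, had the smallest p-value of all members, with 10.11 to 10.78 in tumours (median 10.35), against 10.94 to 11.62 in controls (median 11.48). All 21 tumours were below all 6 controls, within a range of less than 1 log2 unit (difference -1.02 ± 0.12, adjusted p = 2.02e-08). Ndufs5, an accessory subunit at the membrane arm, had the largest difference in complex I, with 7.23 to 9.47 in tumours (median 8.47) and 9.04 to 10.42 in controls (median 10.02). Here 16 of 21 tumours were below all controls, and the tumours spread over more than 2 log2 units (difference -1.45 ± 0.30, adjusted p = 0.000143). Of the other membrane arm subunits, Ndufb8 and Ndufb10 were below all controls in every tumour, with differences of -0.88 ± 0.13 (adjusted p = 7.82e-07) and -0.97 ± 0.17 (adjusted p = 1.39e-05). Ndufb4 fell by 1.04 ± 0.25 (adjusted p = 0.000726), but its only probe set of its own was dim, at a mean of 4.85 in tumours and 5.89 in controls, against a floor of 3.37. Ndufb4 passed the filter on low signal mainly through the controls, which favours a lower call.

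Complex II, which oxidises succinate and links the chain to the tricarboxylic acid cycle, had 1 lower gene of 4. That share, 25%, was near the 25.6% of all genes that were lower. Sdha, the catalytic flavoprotein, had levels of 8.84 to 9.96 in tumours (median 9.73) and 10.42 to 10.82 in controls (median 10.51). No tumour array reached the lowest control. The difference was -1.11 ± 0.15 (adjusted p = 4.57e-07), and a second probe set of the gene was lower too. The remaining subunits were not called: Sdhb, the iron-sulphur subunit, differed by -0.27 (adjusted p = 0.0509, called in 13 of 40 alternatives), and the membrane anchors Sdhc and Sdhd by -0.27 (adjusted p = 0.165) and -0.29 (adjusted p = 0.201). With the mean of probe sets, array weights, the ratio as a covariate or without the 7 dimmest arrays, 3 of the 4 genes were lower. At these settings more of the 80 members were lower as well (40, 49, 46 and 43, against 33). The share of all genes lower there is not given here, so the 3 of 4 is not set against a background.

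Complex III, the cytochrome bc1 complex, had 2 lower genes of 8 and a median difference of -0.45. That share, 25%, was near the 25.6% of all genes that were lower. The 2 were Uqcrc1, a core protein (-0.48 ± 0.18, adjusted p = 0.0282), and Uqcrb, which binds ubiquinone (-0.49 ± 0.15, adjusted p = 0.00755). The count depended on the setting: 4 genes were lower with the mean of probe sets, 5 without the arrays of high ratio, and 6 with array weights or with the ratio as a covariate. The share of all genes lower at these settings is not given here, so these counts are not set against a background. Cyc1, the cytochrome c1 of this complex, was outside the symbol rule and is described further below. Uqcrh, the hinge protein at cytochrome c1, differed by -0.28 and was not called. In a separate limma fit on probe sets, Uqcr10, a small subunit, was not called on its brightest probe set (-0.56, adjusted p = 0.0811). Its 2 dimmer probe sets were lower (-1.73 and -1.32).

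In complex IV, cytochrome c oxidase, 7 of 17 genes tested were lower and 1 was higher. The share lower was 41.2%, against 25.6% of all genes. Several of its subunits exist as alternative isoforms, a general one and one known from particular tissues such as heart, muscle, lung or testis. Of the general isoforms 3 of 6 were lower (Cox4i1, Cox6a1 and Cox8a), and of the subunits without an alternative isoform 2 of 4 (Cox5a and Cox5b). Of the restricted isoforms and paralogues 2 of 7 were lower (Cox6b2 and Cox7a1), and Cox7a2l was higher. Cox6b2 and Cox7a1 passed the filter on low signal mainly through the controls, which favours a lower call. With the filter met on most arrays of each side, 5 of 13 complex IV genes were lower, against 27.6% of all genes kept. The classes hold too few genes to set their shares against a background.

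Cox4i1, the general form of the largest nuclear-encoded subunit, had levels of 10.57 to 11.45 in hGFAP tumours and 10.60 to 11.88 in Olig2 tumours, against 11.58 to 12.16 in controls. The hGFAP arrays lay below all controls and the Olig2 arrays overlapped with them. The difference over all tumours was -0.71 ± 0.15 (adjusted p = 0.000146). Its lung-type isoform Cox4i2 differed by -0.16 and was not called. Cox4i2 was dim, at a mean of 5.29 in tumours and 5.45 in controls. It was above the filter on 9 of 21 tumour arrays and 2 of 6 control arrays. Cox6a1 had a small but separated difference of -0.41 ± 0.10 (adjusted p = 0.000661), all tumours being below all controls, and the heart and muscle form Cox6a2 differed by -0.13 without a call.

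For subunit 8 the general form Cox8a had levels of 8.44 to 10.93 in tumours (median 9.66), against 10.28 to 11.43 in controls (median 11.30). In 16 of 21 tumours it lay below all controls, and the rest overlapped with controls 1 and 6, the lowest of the control arrays. The difference was -1.41 ± 0.30 (adjusted p = 0.00021). Cox8c, known from testis, differed by -0.12 and was not called, while its dimmer probe set was lower (-0.89, adjusted p = 0.0229 in limma's fit on probe sets).

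For subunit 6b the general Cox6b1 was not called (-0.26, adjusted p = 0.0988), while Cox6b2, known from testis, had the lowest difference of all members at -1.66 ± 0.37 (adjusted p = 0.00036). Its signal was dim: 3.37 to 6.37 in tumours (median 4.92), where 3.37 is the floor, against 4.82 to 7.06 in controls (median 6.73). A total of 9 of 21 tumours lay below all controls. For subunit 7a the heart and muscle form Cox7a1 was likewise dim and lower, with 3.37 to 6.25 in tumours and 5.62 to 6.07 in controls and a difference of -1.22 ± 0.31 (adjusted p = 0.00144). Some tumour arrays of both genes sat at the floor, so their lowest values are bounds. Both genes also passed the filter on low signal mainly through the controls, which favours a lower call. The general form Cox7a2 differed by -0.10 and was not called.

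Cox7a2l, a relative of subunit 7a that helps complexes III and IV join into supercomplexes, was the only member called higher in the comparison over all tumours. Its levels were 9.05 to 10.70 in tumours (median 10.01), against 9.15 to 9.91 in controls (median 9.32). In 13 of 21 tumours it lay above all controls, yet the lowest tumour was below the lowest control. The difference was 0.40 ± 0.16 (adjusted p = 0.0398), and its 3 probe sets gave 0.40, 0.41 and 0.67. With the signals as deposited it was 0.046 and not called (adjusted p = 0.91), and the call was also lost without any 1 of 7 arrays: Math1 3, Tlx3 3, Ptc1+/- 1 and controls 2, 3, 4 and 5 (adjusted p up to 0.114). Ndufa4 and the hypoxia-responsive Ndufa4l2 differed by -0.53 (adjusted p = 0.279) and -0.55 (adjusted p = 0.172), and neither was called. Ndufa4l2 was dim, at a mean of 4.97 in tumours and 5.52 in controls. It was above the filter on 6 of 21 tumour arrays and 2 of 6 control arrays.

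In complex V, the ATP synthase, 6 of 17 genes were lower and none was higher, with a median difference of -0.30. The share lower was 35.3%, against 25.6% of all genes. By part, the lower genes were 2 of 5 subunits of the catalytic head and central stalk (Atp5b and Atp5d) and 1 of 4 of the peripheral stalk (Atp5h). The others were 2 of 5 small membrane subunits (Atp5k and Atp5md) and 1 of 3 c-ring genes (Atp5g3). The parts hold too few genes to set their shares against a background. The largest difference was that of Atp5md, a small subunit tied to the dimer form of the enzyme: 8.86 to 10.23 in tumours (median 9.75), against 9.69 to 10.84 in controls (median 10.67). The groups overlapped only because control 6 was at 9.69, and the difference was -0.93 ± 0.17 (adjusted p = 3.62e-05).

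The 3 c-ring genes make an identical mature protein, subunit c of the proton-driven rotor, from precursors with different import signals, and their differences had different signs. Atp5g2 had levels of 8.48 to 11.66 in tumours (median 10.84), against 9.11 to 10.11 in controls (median 10.04). In 14 of 21 tumours it was above all controls, but the difference of 0.79 ± 0.34 was not called (adjusted p = 0.0511). Atp5g1 had 6.95 to 9.81 in tumours (median 9.35), against 8.54 to 10.31 in controls (median 9.97), and its difference of -0.69 ± 0.31 was not called either (adjusted p = 0.0671). Atp5g3 was lower by a small amount (-0.30 ± 0.11, adjusted p = 0.0259), with a mean of 12.06 in tumours and 12.35 in controls.

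For Atp5g2 the call changed with several settings: it was made in 10 of 40 alternatives, among them quantile normalisation (adjusted p = 0.0479), no floor (adjusted p = 0.0483) and array weights (adjusted p = 0.00534). The 4 tumour arrays of high 3′ to 5′ ratio had 8.48 to 9.31 and control 1 had 9.11, the lowest values of their groups. Without those 5 arrays the difference over all tumours was 0.88 (adjusted p = 1.15e-04), Atp5g1 was called lower (-0.60, adjusted p = 0.0332) and Atp5g3 was no longer called. Atp5e, a subunit of the central stalk, was called higher without them (0.64, adjusted p = 0.00302) and not with them (0.48, adjusted p = 0.181).

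**Figure D2:**
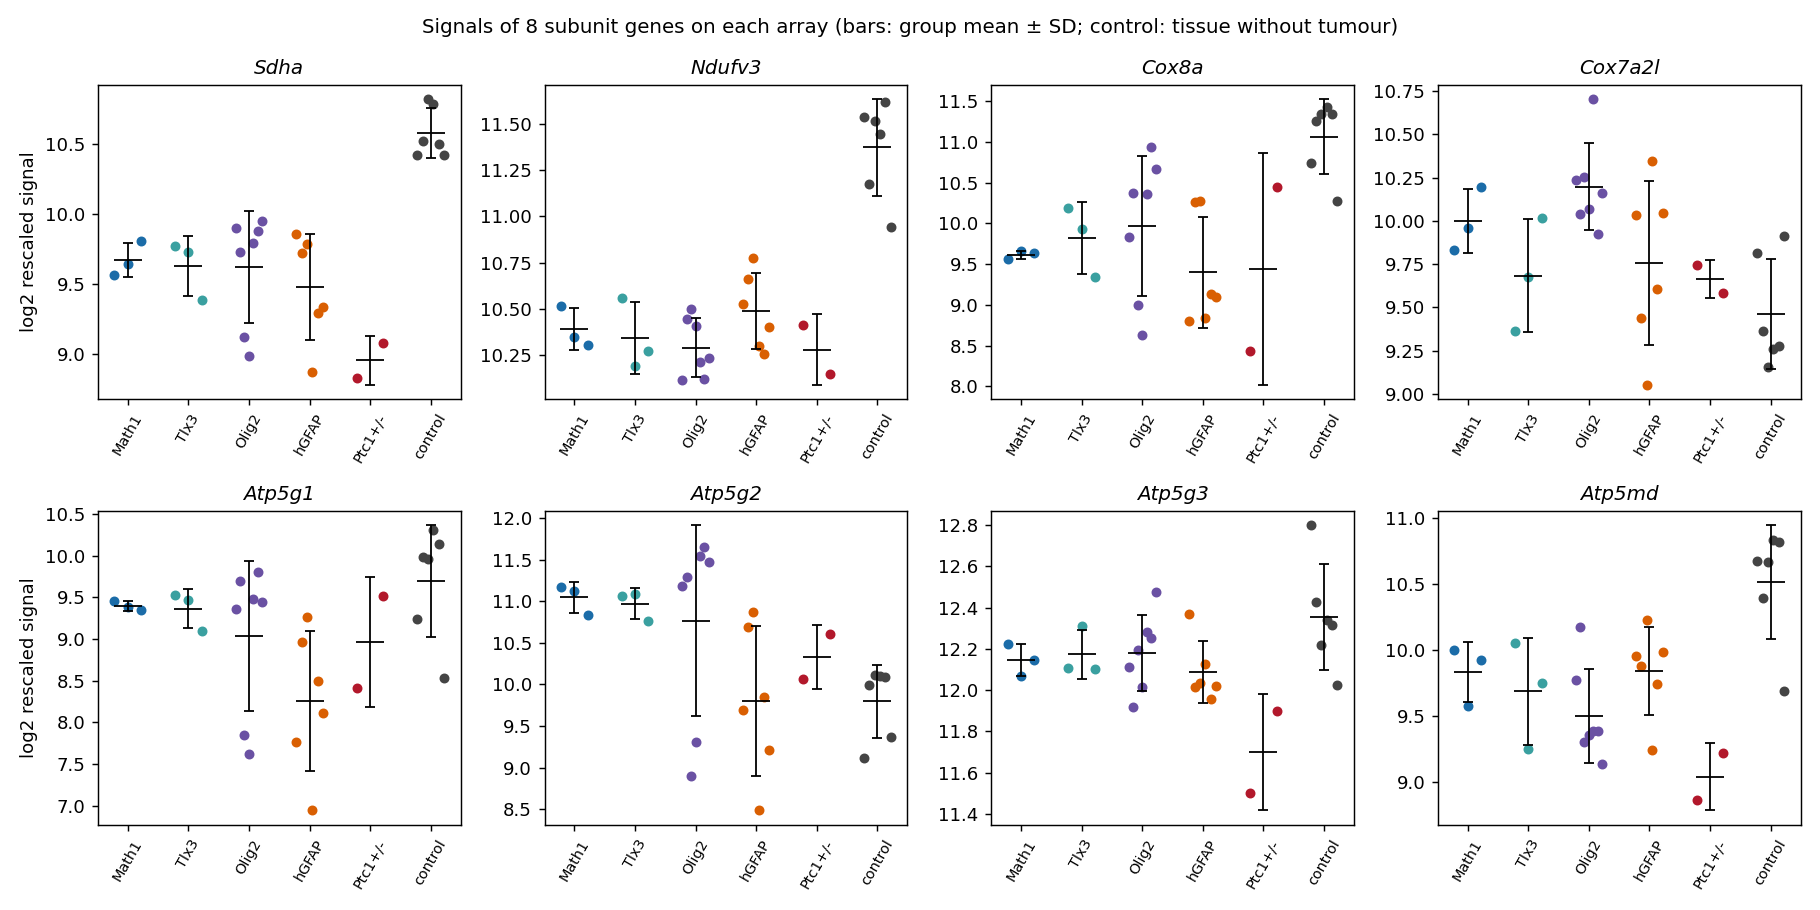
Log2 signal on each of the 27 arrays for 8 subunit genes, with the tumour groups left of the tissue without tumour. All tumours of Sdha and Ndufv3 lie below all controls, most Cox7a2l tumours lie above them, and of the 3 c-ring genes Atp5g2 reached 11.66 in a tumour against 10.11 in the highest control.

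Most members had more than 1 measurement. A total of 149 member probe sets passed the filter, 58 of them lower and 4 higher in tumours, and 44 genes had more than 1 probe set. These calls came from a separate limma fit on all 24752 probe sets past the filter. In 12 genes at least 2 probe sets were called lower, among them Sdha, Cox8a, Ndufs7, Ndufv1, Uqcrb, Cox5a, Cox5b and Cox6a1. Shares over all probe sets, or over all genes with several, were not computed, so these counts are not set against a background. No gene had probe sets called in opposite directions, though those of Atp5a1, Atp5j2, Ndufa7 and Uqcrq differed in sign.

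The arrays of high 3′ to 5′ ratio also had low levels over the members as a whole. The mean level over the 80 genes was 9.31 to 9.45 on the 4 such tumour arrays and 9.33 to 10.09 on the other 17 tumours. Within the Olig2 group it was 9.34 and 9.39 on arrays 3 and 4, against 9.82 to 10.09 on the other 5. Control 1, at a similar ratio, had 10.10, within the 9.79 to 10.26 of the other controls. The comparison over all tumours was of similar size without these 5 arrays: 34 members were lower, 29 of them among the 33, and Atp5b, Atp5d, Atp5g3 and Ndufb9 were no longer called. With the ratio as a covariate 46 members were lower. The share of all genes lower under either setting is not given here, so these counts are not set against a background.

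**Figure D3:**
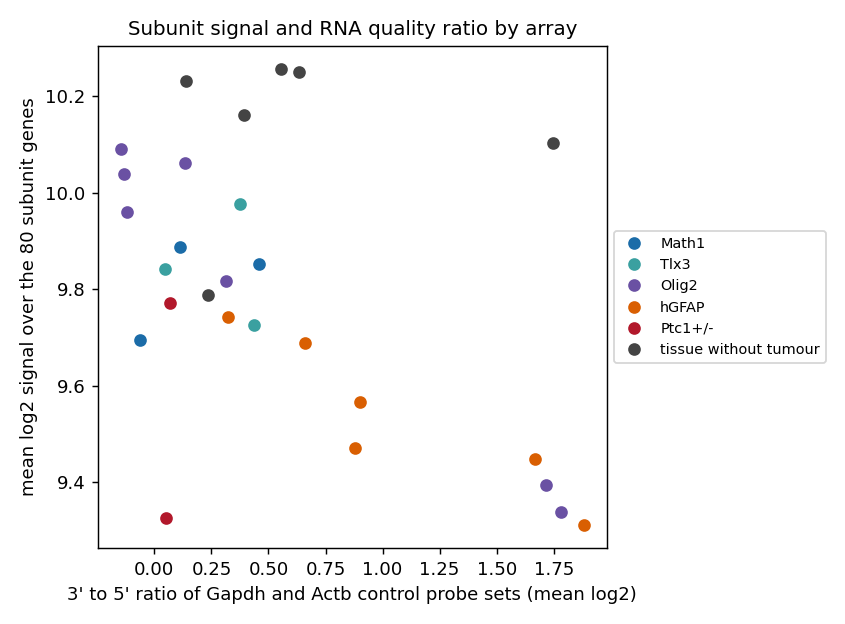
Mean log2 signal over the 80 subunit genes on each array, against the mean log2 3′ to 5′ ratio of the Gapdh and Actb control probe sets. The 4 tumour arrays with a ratio of 1.67 to 1.88 have means of 9.31 to 9.45, and control 1 at 1.75 has 10.10.

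Set against the tissue without tumour, the single tumour groups differed in how many members were called. The 5 comparisons share the same 6 control arrays, and the groups have 2 to 7 arrays each, which bears on the number of calls. Math1 tumours had 17 members lower and none higher (21.25% lower, where 18.1% of all genes were lower and 19.3% higher), with a median difference of -0.29. Tlx3 tumours also had 17 lower and 1 higher (20.6% of all genes were lower and 19.7% higher), with a median of -0.22. In both groups the share of members lower was therefore near the background.

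Olig2 tumours had 23 members lower and 2 higher (28.75% and 2.5%, where 25% of all genes were lower and 24.7% higher), with a median of -0.24. Ptc1+/- tumours had 29 lower and none higher (36.25% lower, where 18.4% of all genes were lower and 17.9% higher), with a median of -0.59. The hGFAP tumours had 44 lower and none higher (55% lower, where 19.2% of all genes were lower and 22.5% higher), with a median of -0.63. The members' share lower was thus near the background in the Olig2 tumours and well above it in the hGFAP and Ptc1+/- tumours. The medians of all genes were between -0.077 and 0.11 in the 5 comparisons.

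The Ptc1+/- count rested on few arrays: without tumour 1 it was 10. Among the Tlx3 tumours the count was 10 without tumour 2 and 8 without tumour 3. The hGFAP count stayed between 34 and 47 when any 1 array was left out.

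In hGFAP tumours every complex had several lower genes: 21 of 34 in complex I, 3 of 4 in complex II, 5 of 8 in complex III, 7 of 17 in complex IV and 8 of 17 in complex V. Olig2 tumours had 12, 1, 1, 6 and 3 in the same complexes, and Ptc1+/- tumours had 13, 2, 1, 8 and 5. Math1 tumours had 11, 1, 0, 4 and 1, and Tlx3 tumours 8, 1, 1, 6 and 1. The mean level of complex I was 9.16 to 9.48 over the hGFAP arrays and 9.23 to 9.95 over the Olig2 arrays, against 9.75 to 10.19 in controls. The hGFAP tumours had the highest median 3′ to 5′ ratio of all groups, 0.89, against 0.47 in controls. Their count of lower members was 40 with the ratio as a covariate and 40 without the arrays of high ratio. The share of all genes lower at these settings is not given here. Without the arrays of high ratio, the hGFAP arrays left still had a median ratio of 0.77, against 0.39 in the controls left. The part of RNA quality in the hGFAP count was not tested. A difference in count does not show that the groups differ from each other, which the comparisons between tumours given below address.

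**Figure D4:**
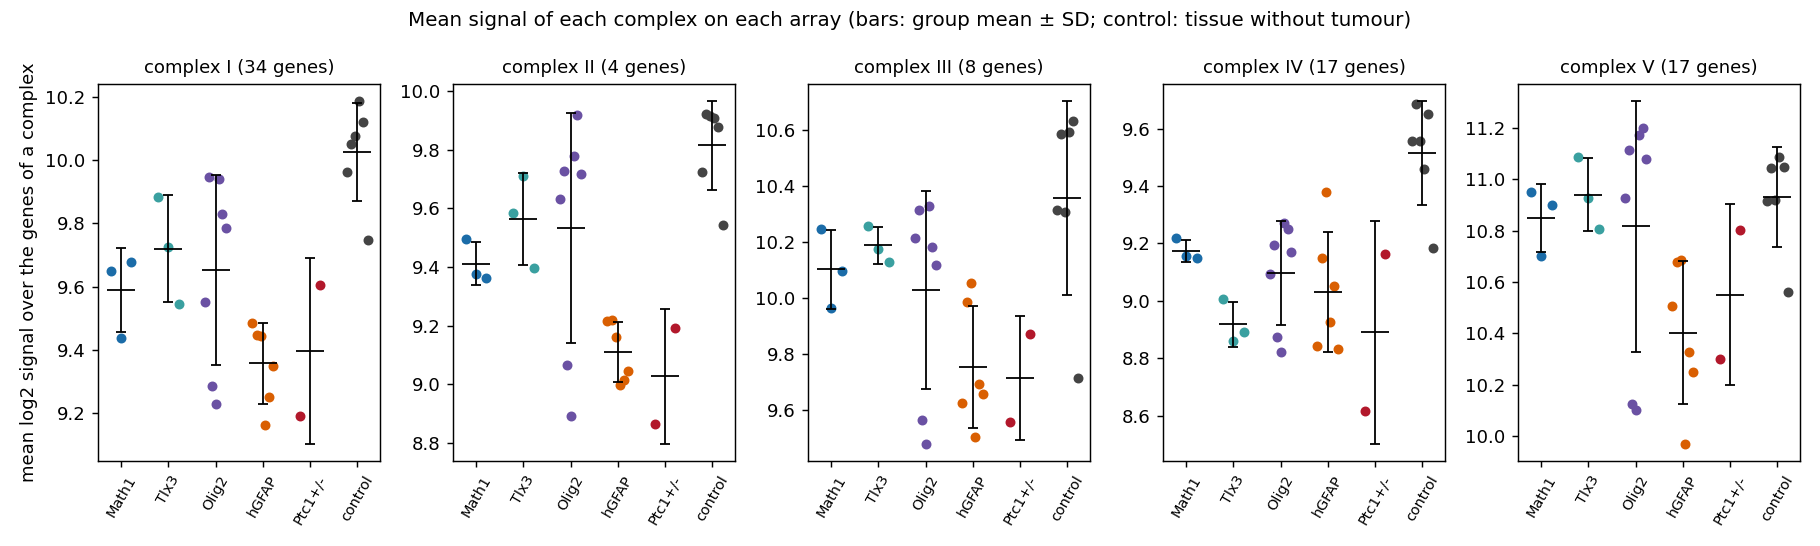
Mean log2 signal of the genes of each complex (34, 4, 8, 17 and 17 genes) on each array, with group means ± SD, tumour groups left of tissue without tumour. In complex I all hGFAP arrays lie between 9.16 and 9.48, below the lowest control at 9.75, while in complex V the tumours reach 11.20, above the highest control at 11.09.

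Named members showed the pattern group by group. Sdha had 9.57, 9.65 and 9.81 in the 3 Math1 tumours, and 9.78, 9.73 and 9.39 in the Tlx3 tumours. It had 8.99 to 9.96 in Olig2 tumours (median 9.79), 8.88 to 9.86 in hGFAP tumours (median 9.54), and 8.84 and 9.08 in Ptc1+/- tumours. Every one of these lay below the lowest control, at 10.42, and Sdha was called lower in each group (adjusted p = 0.00207 or smaller).

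Cox8a and Ndufs7 were also called lower in each group, with wider spreads. Cox8a had 9.56, 9.66 and 9.63 in Math1 tumours, and 10.19, 9.93 and 9.34 in Tlx3 tumours. In the Ptc1+/- tumours it had 8.44 and 10.45, the second of which lay above the lowest control, at 10.28. Its adjusted p was between 0.000436 in hGFAP and 0.027 in Tlx3 tumours.

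The higher calls in single groups were those of Cox7a2l and Atp5g2 in Olig2 tumours and of Ndufb1 in Tlx3 tumours. Cox7a2l had 9.92 to 10.70 in Olig2 tumours (median 10.16), all above the highest control, at 9.91, with a difference of 0.73 (adjusted p = 0.00173). In the other groups its differences were not called. Atp5g2 had 8.90 to 11.66 in Olig2 tumours (median 11.30) and was called there (0.97, adjusted p = 0.0421). The call was lost in 14 of 40 alternatives, with adjusted p-values of up to 0.103 when 1 array was left out and 0.631 as deposited. Without the arrays of high ratio the difference was 1.50 (adjusted p = 1.83e-06).

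In Math1 tumours Atp5g2 had 11.17, 11.13 and 10.84 and in Tlx3 tumours 11.07, 11.09 and 10.76, all above the highest control, at 10.11, although neither group was called (adjusted p = 0.0504 and 0.0619). In hGFAP tumours it had 8.48 to 10.88 and was not called (adjusted p = 0.998), while Atp5g1 was called lower there (adjusted p = 0.0031). Ndufb1, an accessory subunit of complex I, had 7.05, 6.97 and 6.95 in Tlx3 tumours, above the highest control at 6.65, and was called higher by 0.68 (adjusted p = 0.048). That call was lost in 23 of 40 alternatives, with adjusted p-values of up to 0.127.

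**Figure D5:**
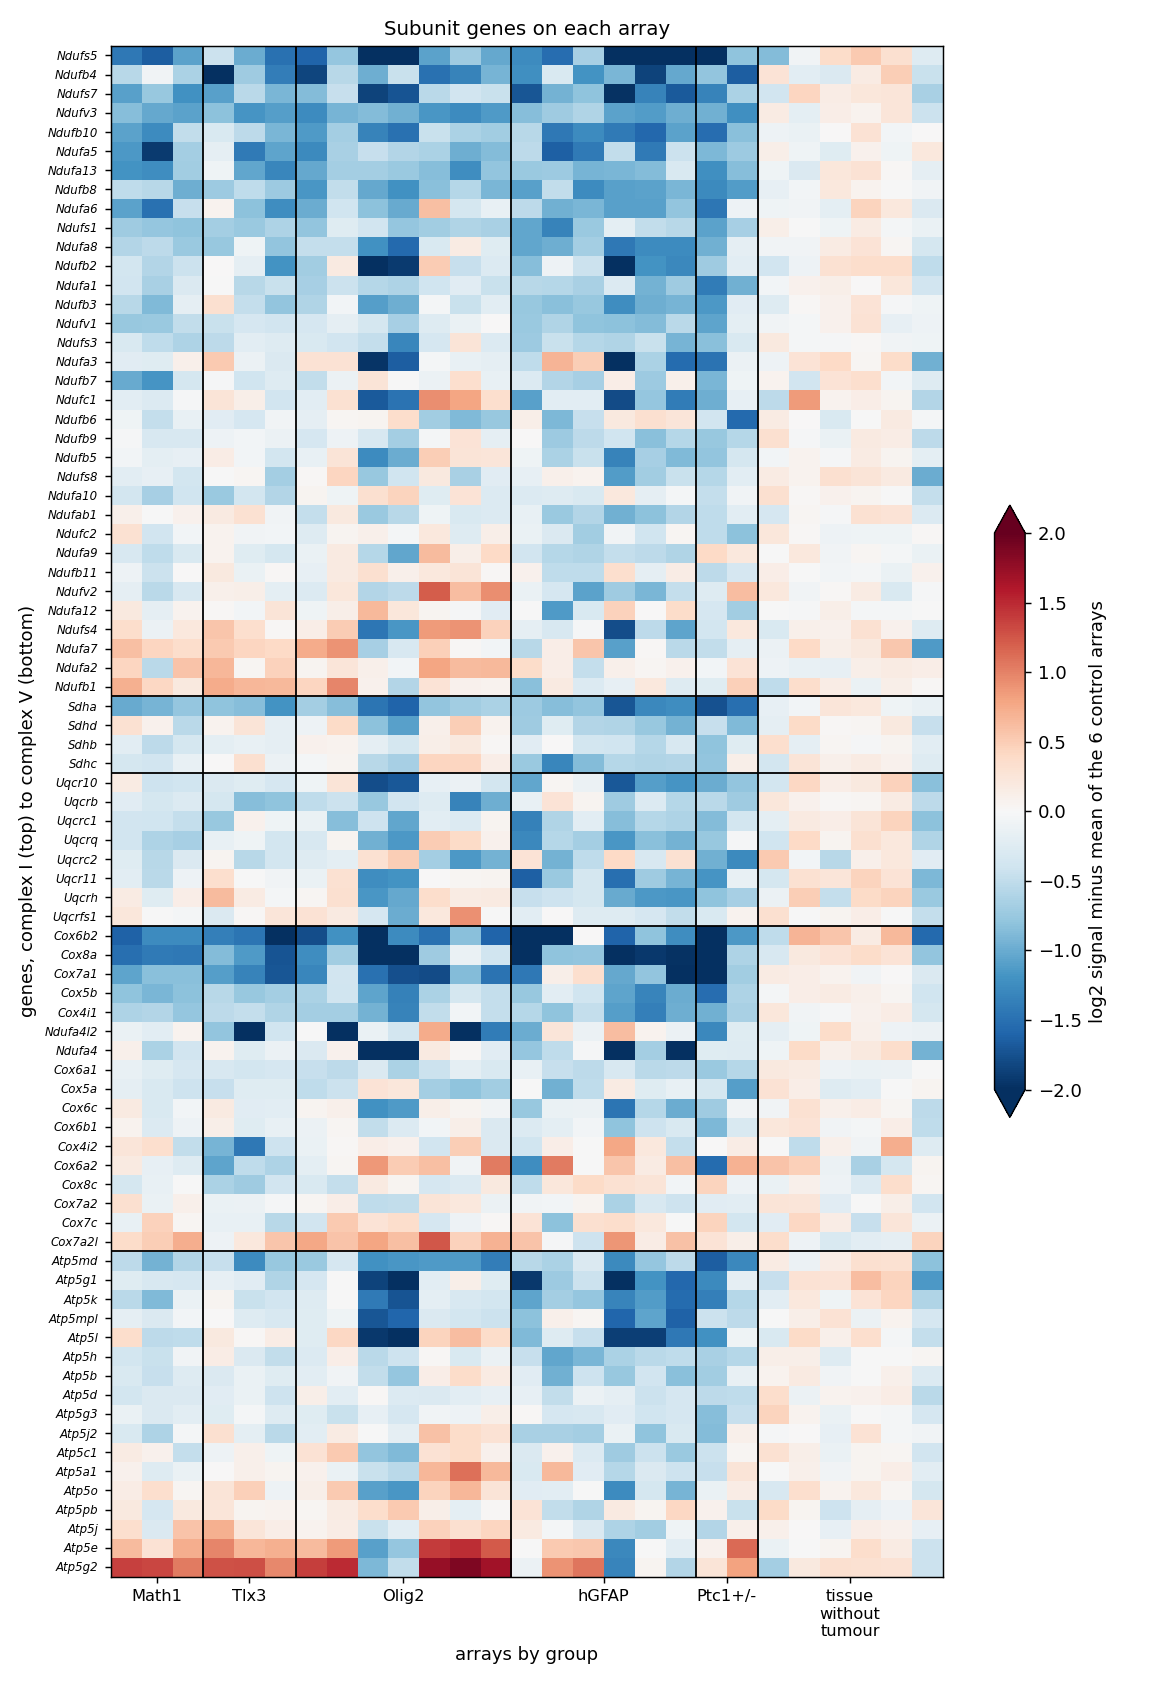
Log2 signal of each of the 80 subunit genes on each of the 27 arrays, minus the gene's mean over the 6 controls, with genes in rows from complex I to complex V and tumour groups left of tissue without tumour. Most cells of the tumour columns are below 0, as were 72 of the 80 differences, and the colour scale ends at -2 and 2.

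Between tumours of different drivers no member passed the test. Set against Math1 and Tlx3 tumours together, hGFAP and Olig2 tumours together differed in 0 of 80 members by limma's adjusted p, as in 0.259% of all genes, and in 16 members at an unadjusted p below 0.05 (5 higher and 11 lower), where 15.5% of all genes had one. The members' median difference was -0.13. The smallest p was that of Ndufab1, whose levels were 8.98 to 9.91 in Olig2 tumours and 8.76 to 9.56 in hGFAP tumours, against 9.81, 9.70 and 9.79 in Math1 and 9.89, 10.02 and 9.64 in Tlx3 tumours. All but Olig2 array 2 were below the lowest Math1 or Tlx3 array, and the difference of -0.57 was not called (adjusted p = 0.0746).

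Ndufa10, an accessory subunit of complex I, was at 8.99 to 9.71 in Olig2 and 8.96 to 9.49 in hGFAP tumours, against 8.91, 8.62 and 8.87 in Math1 and 8.54, 8.90 and 8.69 in Tlx3 tumours. All 13 arrays of the first pair of groups were above all 6 of the other pair (0.037% of all genes were so), yet the difference of 0.48 was not called (adjusted p = 0.108). As deposited its sign was the opposite, -0.31, as it was with the mean of its probe sets, -0.20. Ndufb1 (-0.56, adjusted p = 0.171), Uqcrh (-0.59, adjusted p = 0.215) and Cox8c (0.36, adjusted p = 0.246) followed.

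The moderated F test over the 4 SmoM2 groups called 0 members, against 0.946% of all genes, and 18 had an unadjusted p below 0.05, as did 21.1% of all genes. Its smallest adjusted p-values were those of Ndufab1 (0.079) and Sdhc (0.0792), followed by Atp5j2, Ndufa10 and Atp5h. Sdhc had 8.52 to 9.61 in Olig2 tumours and 7.88 to 8.62 in hGFAP tumours, so those 2 groups overlapped only narrowly. Without the 5 arrays of high ratio 7 members were called: Atp5g2, Atp5j2, Ndufa9, Ndufs4, Ndufv2, Sdhc and Uqcrq.

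Ptc1+/- tumours differed from the SmoM2 tumours in 0 members by limma's adjusted p (0.547% of all genes were called), with 11 at an unadjusted p below 0.05, as were 11.7% of all genes. The members' median difference was -0.20, and without Ptc1+/- tumour 1 it was 0.078. Ndufa1, an accessory subunit that complex I needs to assemble, had 10.24 and 10.68 in the Ptc1+/- tumours, just below the lowest of the 19 SmoM2 tumours, at 10.69. Its difference of -0.71 was not called (adjusted p = 0.0837). Ndufa1 was 1 of 3 members, with Atp5d and Atp5g3, whose Ptc1+/- arrays both lay below all SmoM2 tumours (3.75%, against 0.976% of all genes). Next came Ndufc2 (-0.58, adjusted p = 0.185), Sdha (-0.65, adjusted p = 0.27), Ndufb6 (-0.76, adjusted p = 0.3) and Atp5g3 (-0.45, adjusted p = 0.305).

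Other genes of the mitochondrion and of energy use were read against the same background, 25.6% of all genes lower and 26.8% higher. Of 13 subunits encoded by the mitochondrial genome 1 was tested, ND5, a proton-pumping core subunit of complex I. It had 10.39 to 11.98 in tumours (median 11.35), against 12.31 to 12.62 in controls, with no overlap, and differed by -1.11 ± 0.17 (adjusted p = 2.70e-06). Of 7 genes listed as electron carriers 2 were lower, a share near the background: Gpd2, the mitochondrial glycerol phosphate dehydrogenase (-0.93), and Cyc1, cytochrome c1 (-0.51). Cyc1 is itself a core subunit of complex III, which the symbol rule left out of the members. Cytochrome c itself, Cycs, was not called (-0.19).

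Of 42 assembly factors tested 14 were lower and 2 were higher, where 25.6% of all genes were lower and 26.8% higher. Their median difference was -0.22, against 0.016 for all genes. The lowest was Atpaf1, which assembles the head of the ATP synthase (-1.20), and the highest Coa7, a complex IV assembly factor (0.97). In the tricarboxylic acid cycle, which feeds NADH and succinate to the chain, 10 of 18 genes were lower and 2 were higher. Idh3b, a subunit of the NAD-dependent isocitrate dehydrogenase, fell by 1.31, while Idh2, the NADP-dependent enzyme of the same reaction, was higher by 1.95.

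Of 19 glycolysis genes 13 were lower and only Hk2 and Ldha were higher. Hk2, an inducible hexokinase, was higher by 2.41 and the lactate dehydrogenase gene Ldha by 0.80. Hk1, the main hexokinase of brain, fell by 1.86, and Eno2, the neuronal enolase, fell by 4.90 (1 tumour array at the floor). Among 24 genes of mitochondrial mass and transport 5 were higher and 8 lower, with Phb2, a prohibitin of the inner membrane, at 1.11 and Ckmt1, the mitochondrial creatine kinase, at -3.83 (2 tumour arrays at the floor).

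The regulators of mitochondrial biogenesis split in both directions, with 8 of 20 higher and 6 lower, the lower share being near the background. The coactivators Ppargc1b (-4.43 ± 0.41, adjusted p = 2.31e-10) and Ppargc1a (-2.64 ± 0.35, adjusted p = 2.28e-07) were lower, as were the nuclear receptors they work with, Esrrg (-3.92) and Esrra (-1.28). For these 4 genes, and for the lower Polrmt (-1.03), all tumours were below all controls. The related coactivator Pprc1 went the other way and was higher (0.54, adjusted p = 0.0128). The transcription factors Nrf1 (0.65), Gabpa (1.12) and Yy1 (0.88) were higher, the last with all tumours above all controls (9.03 to 10.10 in tumours, 8.38 to 8.92 in controls), and so was Ssbp1, which binds single-stranded mitochondrial DNA (1.23). Twnk was higher too (1.20), with all tumours above all controls. Tfam, which packages and transcribes mitochondrial DNA, was not called (0.32, adjusted p = 0.135). All of these values come from the same comparison as the mature neuron markers given above, whose part in them was not tested.

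Counted by gene, the widened NRF1 motif was in the promoters of 11 of the 29 lower members with a promoter (37.9%). It was in 4 of the 35 members not called (11.4%), and in 5.19% of all genes with a promoter. The YY1 motif was in 2 of 29 and 7 of 35, the ETS motif in 7 of 29 and 10 of 35, and the ERR motif in 4 of 29 and 4 of 35. The stricter form of the NRF1 motif was in 3 of 29 and 1 of 35. Whether lower members and members not called differ in these motifs was not tested. A total of 30 members had none of the 4 motifs within these 300 bases.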

How the data were processed

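Per the submitters' processing notes, the authors made the deposited intensity signals with MAS5; the version and target are not given in the sources used here. The extract was total RNA (Trizol, RNeasy), per the labels' protocols. Depth does not apply to arrays; their number limits the precision. The 27 columns were rescaled to a common 2% trimmed mean of 123.6, floored at the 20th percentile of the table (10.3) and put on a log2 scale. Of 45101 probe sets, 34958 were listed with 1 gene, 932 with several and 9211 not listed. Probe sets above the table's median (45.6) on at least 3 arrays were kept, and the one of highest mean was taken per gene. limma 3.58.1 (R 4.3.3) fitted a mean per group with 21 residual degrees of freedom, with eBayes (trend, robust), two-sided, and Benjamini-Hochberg adjustment over 13527 genes. The procedure was tested on simulated data.

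The members and the gene lists were chosen with earlier results of these data known. Members named (33 genes) were the 8 highest and 8 lowest called over all tumours, all Sdh genes, all isoform sets, the 5 smallest p-values of each comparison between tumours, and the 2 highest and lowest called per tumour group; of each other list, the highest and lowest called gene, with Ppargc1a, Nrf1, Tfam and Esrra. Other genes named, such as Ndufs1, Ndufb8, Ndufb10, Atp5md, Atp5e, Esrrg, Gabpa, Yy1, Ldha and Gpd2, and the 8 promoters, were chosen after their values were seen. So were Pprc1, Polrmt and Twnk. Alternatives changed the scaling, floor, filter, probe set choice, eBayes settings, array weights, replicate block, groups in the fit, and arrays of high 3′ to 5′ ratio or low brightness, and left out each array in turn; a filter met by most arrays of tumours and of controls was added after the data were seen.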

Additional observations from a re-analysis of the deposited data

Results flagged for a closer look

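In 102 groups of values (named members and array means, in groups of 4 to 10 arrays), 4 had 1 array far from the others by Dixon's criterion, which chance gives in about 1 of 20 groups. Cox7a2l was 10.70 on Olig2 array 5, against 9.92 to 10.26 on the other Olig2 arrays. Atp5h was 11.38 in control 3, against 11.63 to 11.77 in the other controls. Control 6, from a Ptc1+/- mouse, was low in Ndufa4, at 10.71 against 11.56 to 12.04, and in the mean over the 80 members, at 9.79 against 10.10 to 10.26; it was also the control of highest cell division and precursor markers.

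Cox4i2 lay above the control mean of 5.45 in both Ptc1+/- tumours and below it in all 3 Tlx3 tumours; that difference between the groups was not tested.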

How the results depend on the processing

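Over all tumours the number of lower members stayed within 1.5 times of 33 under every alternative run: 29 to 49 under the planned settings and 27 to 40 when 1 array was left out. Their median stayed below that of all genes. Shares of all genes called under the alternatives are not given here, except for the filter met by most arrays of each side. The other counts in this section are therefore not set against a background. By complex, lower members ranged over the settings other than leaving out 1 array from 15 to 21 in complex I, 1 to 3 in II, 2 to 6 in III, 5 to 10 in IV and 4 to 9 in V. Higher members numbered 0 as deposited, 2 with quantile normalisation, 2 without the floor, 2 with the 3′ to 5′ ratio as covariate, and 3 with array weights, without the 5 arrays of high ratio, and without the 7 dimmest arrays.

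With the signals as deposited, where brightness differs between arrays by up to 4.84-fold and the median of all genes moved by more than 0.1 on the log2 scale in most comparisons, lower members against tissue without tumour numbered 0 in Math1, 2 in Tlx3, 47 in Olig2 and 64 in Ptc1+/- tumours, with 0 higher in Tlx3 and Olig2. The members' medians were then -0.74 over all tumours, -1.70 in Ptc1+/-, -1.08 in hGFAP, -0.95 in Olig2 and 0.16 in Tlx3 tumours. Those of all genes were -0.34, -1.01, -0.34, -0.68 and 0.29 in the same order, so much of each shift was shared by all genes. Between tumours, as deposited, 64 members were lower in hGFAP and Olig2 than in Math1 and Tlx3 (median -0.91, against -0.76 for all genes). In Ptc1+/- against SmoM2 tumours 8 were lower (median -1.11, against -0.90 for all genes), and 8 were called by the F test. Quantile normalisation gave 1 higher in Math1, 26 lower in Tlx3 (median -0.40), and 35 lower and 1 higher in Olig2 tumours (median -0.44).

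Array weights gave 2 higher and 32 lower in Math1, 3 higher and 26 lower in Tlx3, 1 higher and 1 lower between the driver pairs, and 14 by the F test. With the ratio as covariate there were 2 higher and 26 lower in Math1, 1 higher in hGFAP, 44 lower in Ptc1+/- tumours, and 1 lower in Ptc1+/- than in SmoM2 tumours. Without the arrays of high ratio there were 2 higher in Math1, 2 in Tlx3 and 5 in Olig2, 1 lower in Ptc1+/- than in SmoM2 tumours, and 7 by the F test. Without the 7 dimmest arrays there were 2 higher in Math1, 3 in Tlx3 and 5 in Olig2, 13 lower in Olig2, 1 by the F test, and medians of -0.78 for Ptc1+/- tumours against controls and -0.44 against SmoM2 tumours. With only the groups compared in the fit there were 3 higher in Math1, 3 higher and 26 lower in Tlx3, and 1 higher in Olig2 tumours. The rest changed only higher calls: no floor gave 1 in Math1, the mean of probe sets 2 in Math1, no filter 0 in Tlx3 and 1 in Olig2, and no trend or robust fit 1 in Olig2.

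The replicate number as a block gave 37 lower members over all tumours (31 of the 33), 0 higher in Tlx3 and 1 higher in Olig2. The numbers did not pair the samples: the deviations of same-numbered samples had a median correlation of 0.034 (49 pairs, 19 over 0.1), against 0.004 for 244 other pairs.

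Leaving out 1 array at a time gave these ranges for higher members, lower members and the median: 0 to 2, 27 to 40 and -0.43 to -0.32 over all tumours; 0 to 1, 12 to 20 and -0.35 to -0.23 in Math1; 0 to 2, 8 to 19 and -0.29 to -0.15 in Tlx3; 1 to 3, 19 to 26 and -0.32 to -0.16 in Olig2. In hGFAP tumours they were 0, 34 to 47 and -0.68 to -0.56, and in Ptc1+/- tumours 0, 10 to 30 and -0.78 to -0.28. Between the driver pairs they were 0, 0 to 1 and -0.16 to -0.09, between Ptc1+/- and SmoM2 tumours 0, 0 and -0.42 to 0.078, and by the F test 0 to 2.

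Among the named members, for which each alternative was run, the signs that reversed were those of genes not called: over all tumours Cox6a2 without Ptc1+/- replicate 1 (0.094), Cox7a2 without the arrays of high ratio (0.011) and Ndufb1 as deposited (-0.10), and between the driver pairs Cox8c (-0.43) and Ndufa10 (-0.31) as deposited and Ndufa10 with the mean of its probe sets (-0.20). Apart from the settings' own construction, the cause of these changes was not tested. MAS5 signals near the floor, as for Cox6b2, Cox7a1 and Ndufb4, give only bounds, and the 2 Ptc1+/- arrays limit what that group shows.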
